A study of Mus musculus with 16 samples.

Results

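Described here are 5 genes for enzymes that break down amino acids. They are those of D-amino acid oxidase (Dao), ornithine aminotransferase (Oat), hydroxyphenylpyruvate dioxygenase (Hpd), proline dehydrogenase (Prodh) and histidine ammonia-lyase (Hal). They were taken by gene symbol, each from the 1 probe that the platform annotation gives to that gene alone, out of 8923 genes and unnamed probes on the array. Transcripts were measured in livers of 8 female APOE3Leiden mice, a C57BL6 line transgenic for the human apolipoprotein E variant APOE3-Leiden. The treated mice received diet W, a Western-type diet enriched with 15% saturated fat and 0.25% cholesterol by weight, to which cafestol at 0.04% and kahweol at 0.02% by weight, 2 diterpenes of coffee, had been added. The 7 control mice, of the same transgenic strain, received diet W alone. Both diets were fed for 4 weeks to mice 10 weeks old at the start, so the transgene and the fatty diet were common to both groups. The 2 diterpenes were given only together. Each treated liver was hybridised on 2 cDNA arrays, 16 in all, as Cy5, with control-diet liver RNA as Cy3 on the same array. No label ties the control RNA to single mice, so it counts as 1 control sample and its spread is not in the main tests. An alternative test assumed that the control RNA was a mix of 7 mice varying like the treated ones.

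The values are log2 ratios of the 2 channels, and no source used here says which diet is on top. Signs are therefore printed as deposited. In rodents these diterpenes are known to raise glutathione S-transferases and to lower Cyp7a1, which sets the rate of bile acid synthesis. Here the transferase Gstm1 lay below 0 (-2.48 ± 0.23, SD, n = 8 mice) and Cyp7a1 above it (1.56 ± 0.38). A member on the Gstm1 side has a negative ratio and a member on the Cyp7a1 side a positive one, whatever the direction turns out to be. All 5 members had a value on all 16 arrays, 80 values in all. The dyes were never swapped, so a probe's preference for either dye cannot be told apart from the diet. The mice carry identifiers of 2 series, SY and TP, with 4 mice each, whose meaning no label states. The array titles carry codes that nearly follow the series: 9 arrays have bl7 (all TP arrays and 1 of mouse SY518Z) and 7 have c3z. A ratio holds no level, so the liver identity of the samples could not be checked against marker genes, and fewer cells of a type and less RNA per cell cannot be told apart.

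The liver is the main site of amino acid breakdown, which removes nitrogen and feeds the carbon skeletons into energy and glucose metabolism. Oat and Prodh are mitochondrial enzymes that turn ornithine and proline into the same intermediate on the way to glutamate. Hpd acts in the cytosol on the second step of tyrosine breakdown, after transamination, and Hal removes ammonia from histidine to give urocanate. Dao is a flavoenzyme of peroxisomes that oxidises D-amino acids and glycine and releases hydrogen peroxide. In the mouse it is best known from kidney and brain, and mouse liver has been described as having little or none.

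The genes lie on different chromosomes or far apart. In GRCm38.p6 (RefSeq), Dao is on chromosome 5 from 113999635 to 114025675, and Hpd on chromosome 5 from 123171807 to 123182723. Oat is on chromosome 7 from 132557475 to 132576398, Hal on chromosome 10 from 93488768 to 93516761, and Prodh on chromosome 16 from 18071726 to 18089283. The probes' sequences and their positions within these genes were not analysed here, so the probe annotated as Dao was not checked against the Dao transcript. RefSeq promoter windows (250 bases before to 50 after a start) were matched for all 5 genes, with 3 windows for Dao and 1 for each of the others. They were searched on both strands for the antioxidant response element core TGACNNNGC, bound by the stress regulator NRF2, for the C/EBP site TTGCNNAA and for the HNF4 site TGNACTTTG, both of liver factors. Of 32544 distinct mouse windows of the same length, 12.4% held the first, 10.8% the C/EBP site and 1.43% the HNF4 site. The windows of Oat and Hpd and 2 of the 3 of Dao held none of these letters. The 3 windows that held a match are shown, with the match in capitals, on the gene's strand. They are the Dao window at chr5:114003634-114003933 (+), the Prodh window at chr16:18089141-18089440 (-) and the Hal window at chr10:93488518-93488817 (+).
Dao: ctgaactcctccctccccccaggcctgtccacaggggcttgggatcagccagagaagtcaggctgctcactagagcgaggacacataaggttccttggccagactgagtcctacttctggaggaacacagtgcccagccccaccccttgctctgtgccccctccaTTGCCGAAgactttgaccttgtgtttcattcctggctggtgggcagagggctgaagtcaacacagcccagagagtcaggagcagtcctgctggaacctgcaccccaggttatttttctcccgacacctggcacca
Prodh: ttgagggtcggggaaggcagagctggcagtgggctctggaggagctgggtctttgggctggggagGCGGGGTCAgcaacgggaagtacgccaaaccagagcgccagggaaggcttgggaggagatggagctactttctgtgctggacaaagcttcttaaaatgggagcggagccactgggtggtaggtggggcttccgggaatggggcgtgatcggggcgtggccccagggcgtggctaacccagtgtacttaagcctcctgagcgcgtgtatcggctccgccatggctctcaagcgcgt
Hal: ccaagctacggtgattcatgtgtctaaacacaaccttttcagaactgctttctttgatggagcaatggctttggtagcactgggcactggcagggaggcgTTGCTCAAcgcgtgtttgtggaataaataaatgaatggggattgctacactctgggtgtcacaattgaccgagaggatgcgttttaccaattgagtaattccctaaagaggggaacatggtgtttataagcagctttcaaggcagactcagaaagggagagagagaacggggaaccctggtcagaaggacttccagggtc
The match in Dao, TTGCCGAA, begins at -85 from that start, and the match in Hal, TTGCTCAA, at -150; both are of the C/EBP form. The antioxidant form stood in Prodh, as GCGGGGTCA on the gene's strand from -185. A match of letters, or the lack of one, is a description of the window and not evidence on a bound factor. The matches did not overlap one another.

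Dao stood on the Gstm1 side in every mouse and on every array. It read -1.10, -1.23, -1.23 and -1.29 in the SY mice SY518Z, SY521RL, SY522ROB and SY524ROB+L, and -1.38, -1.51, -1.29 and -1.26 in the TP mice TP4163, TP4168, TP4205 and TP4215. The highest and lowest of these, SY518Z and TP4168, differed by less than the distance of any mouse from 0, and the series overlapped. The mean was -1.29 ± 0.12 (SD, n = 8), a 2.44-fold difference (limma with Benjamini-Hochberg adjustment over 8348 genes and unnamed probes, adjusted p = 1.12e-09). By size of ratio Dao ranked 9 of the 8348, and among the 6355 named genes it was number 5 from the lowest. Its SD between mice was close to the median of all features tested, 0.106, although the ratio itself was far from the median of -0.02. The 2 arrays of a mouse differed with an SD of 0.069, also the typical size (0.0688 as the median over all features).

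Calls were common in these data, and the members are to be read against that. Of the 8348 features tested, 43.4% passed, 18% above 0 and 25.4% below 0, whereas 63 of them both passed and reached 1.5-fold. All 5 members passed. Against a minimum difference of 1.2-fold, which 1.47% of features passed, Dao, Oat, Hpd and Prodh passed (limma, highest adjusted p = 0.0422, for Prodh) and Hal did not. Dao, Oat and Hpd were among the 63, with Oat and Hpd among the 24 above 0 and Dao among the 39 below 0.

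**Figure D1:**
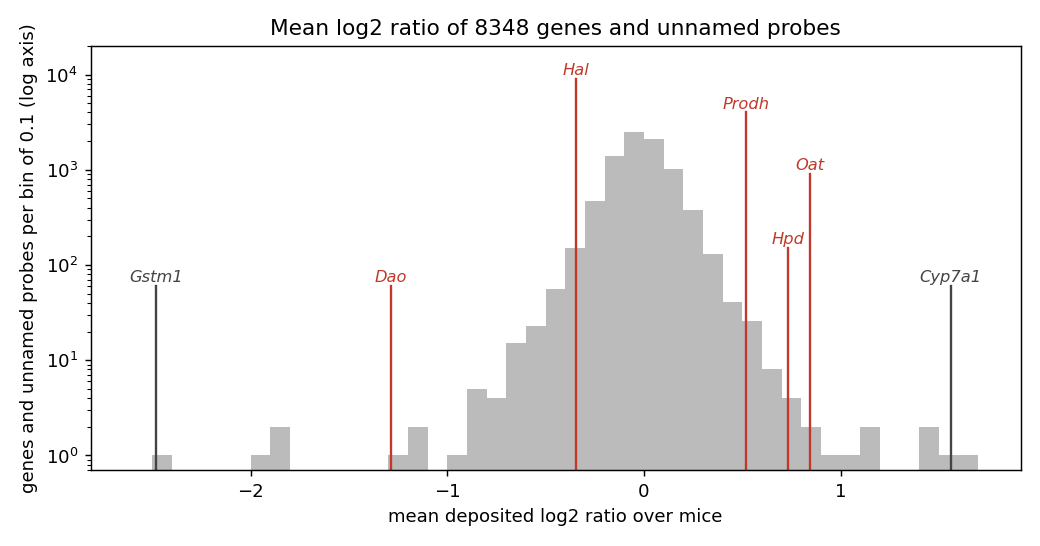
Histogram of the mean deposited log2 ratio (horizontal axis) of the 8348 genes and unnamed probes tested, with counts per bin on a log axis; red lines mark the 5 members and grey lines Gstm1 and Cyp7a1. Dao at -1.29 lies far below the bulk, Oat at 0.84, Hpd at 0.73 and Prodh at 0.52 lie above it, and Hal at -0.35 lies within its lower flank.

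The ornithine and proline enzymes lay on the Cyp7a1 side. Oat read 1.10, 0.81, 0.89 and 0.38 in the 4 SY mice (in the order used for Dao) and 0.72, 1.202, 0.72 and 0.93 in the 4 TP mice. SY524ROB+L was the lowest and TP4168 the highest, and every mouse was above 0. The mean was 0.84 ± 0.25 (SD, n = 8), a 1.79-fold difference (limma, adjusted p = 7.33e-06), number 7 from the highest among named genes. Its arrays agreed closely within a mouse: the SD between arrays of a mouse was 0.0452, so the spread of 0.25 was between mice. In the 3 SY mice with c3z arrays only, the mean was 0.69 and did not pass (adjusted p = 0.0652). All 4 TP mice, with bl7 arrays only, averaged 0.89 and passed (adjusted p = 0.00611).

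Prodh read 0.58, 0.58, 0.43 and 0.10 in the SY mice and 0.43, 0.72, 0.77 and 0.54 in the TP mice. The mean was 0.52 ± 0.21 (SD, n = 8), a 1.43-fold difference (limma, adjusted p = 5.15e-05), above 0 in 8 of 8 mice. The low value of SY524ROB+L hid a disagreement, since its 2 arrays read -0.38 and 0.58. That gap of 0.96 was the largest of all 8319 features with values on both arrays of that mouse. The other 15 arrays read between 0.38 and 0.77. Without SY524ROB+L the call remained. The 3 SY mice with c3z arrays only, SY524ROB+L among them, averaged 0.37 and did not pass (limma, adjusted p = 0.142).

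Hpd, the tyrosine enzyme, was above 0 on all 16 arrays. It read 0.92, 0.54, 0.43 and 0.54 in the SY mice and 0.77, 1, 0.96 and 0.72 in the TP mice. In 3 of the 4 SY mice it lay below all TP mice, while SY518Z lay among them. The mean was 0.73 ± 0.22 (SD, n = 8), a 1.66-fold difference (limma, adjusted p = 7.33e-06). The difference between the series, -0.26 ± 0.10 (SE, SY minus TP), did not pass (limma, adjusted p = 0.149). Without SY518Z it was -0.36 and passed (adjusted p = 0.0158), but series and array code then fall together. With array code as a term and mouse as a random block it was -0.02 (limma, adjusted p = 0.965), and after quantile normalization -0.10 (adjusted p = 0.410).

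In order of the mean, Oat (0.84), Hpd (0.73), Prodh (0.52), Hal (-0.35) and Dao (-1.29) ran from the Cyp7a1 to the Gstm1 side. Oat and Hpd differed by less than the SD of either gene between mice. These are ratios of each probe against its own control signal, so the order says nothing about which transcript was more abundant.

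**Figure D2:**
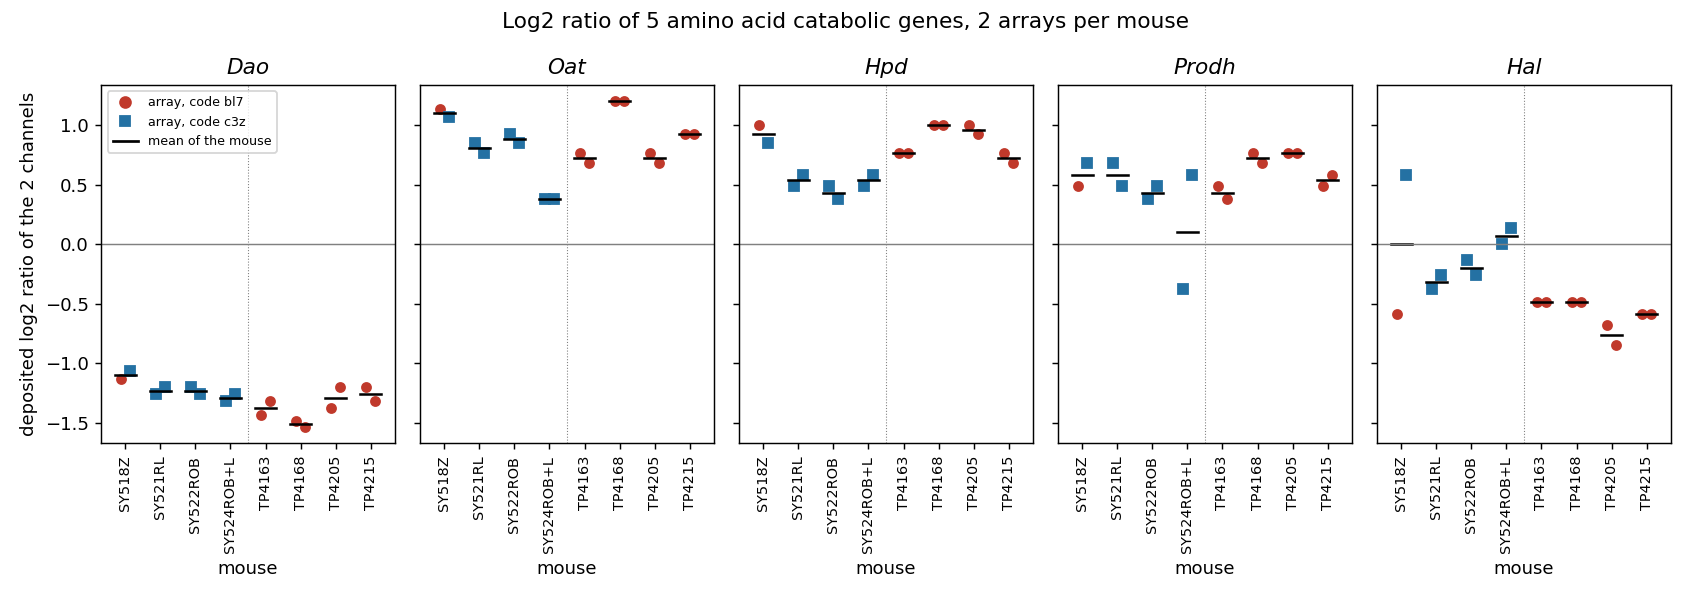
Deposited log2 ratio (vertical axis) of each member on the 2 arrays of each mouse (horizontal axis, SY mice left of the dotted line, TP mice right); circles are arrays with code bl7, squares arrays with code c3z, and bars the mean of the mouse. Dao lies between -1.54 and -1.07 on every array, while Hal lies lower in TP mice and reads -0.58 and 0.58 on the 2 arrays of SY518Z.

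Hal was the member least settled by these data. Its mean was -0.35 ± 0.29 (SD, n = 8), a 1.27-fold difference that passed (limma, adjusted p = 0.00493), with 6 of 8 mice below 0. It did not pass with the control RNA taken as a mix of 7 varying mice (limma, adjusted p = 0.0577). It read 0, -0.32, -0.20 and 0.07 in the SY mice, and -0.49, -0.49, -0.76 and -0.58 in the TP mice. The series did not overlap, which held for 9.39% of the 8059 features with values in all mice. SY mice averaged -0.11 ± 0.18 and TP mice -0.58 ± 0.13 (SD, n = 4 each), a difference of 0.47 ± 0.09 (SE, SY minus TP; limma, adjusted p = 0.0178), in a comparison in which 5.7% of features passed. The difference did not pass without SY522ROB (adjusted p = 0.0634), SY524ROB+L (0.0703) or TP4205 (0.0682). In SY mice alone the ratio itself did not pass (limma, adjusted p = 0.304), and in TP mice alone it did (adjusted p = 0.00611). An exact permutation test of 4 against 4 mice gave p = 0.0286, the smallest it can give. The other 4 members did not pass in this comparison (limma, adjusted p from 0.149 for Hpd to 0.693 for Oat).

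The 0 of SY518Z was the mean of -0.58 on its bl7 array and 0.58 on its c3z array, hybridised with the same liver RNA. This gap of 1.17 was reached by 3 of 8127 features on the arrays of that mouse, Hal included, and Hal was the 1 feature that read at least 0.5 from 0 on both arrays with opposite signs. The arrays of SY518Z also differed more in general, with an SD of 0.165 over all features, against 0.0944 to 0.118 in the 7 mice whose arrays had the same code. Over all arrays, the 9 with code bl7 read -0.85 to -0.49 for Hal, and the 7 with code c3z read -0.38 to 0.58. These ranges did not overlap, as was the case for 2.68% of the 7312 features with values on every array. On bl7 arrays alone the mean over mice was -0.58 (limma, adjusted p = 0.000598, with 45.4% of features called), and on c3z arrays alone 0.03 (adjusted p = 0.904, with 25.3% called). The latter mean includes the 0.58 of SY518Z. In the 3 SY mice with c3z arrays only, the mean was -0.15 (limma, adjusted p = 0.332). With array code as a term and mouse as a random block, the code difference for Hal was -0.93 ± 0.16 (SE, bl7 minus c3z; limma, adjusted p = 0.00148), in a comparison in which 6.59% of features passed. In that fit the difference between the series was -0.34 (adjusted p = 0.474), opposite in sign to the fit without the term. Only the arrays of SY518Z separate code from series, so the code difference rests on that 1 mouse. What the codes stand for was not given, and their part in the result for Hal was not tested beyond these values.

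**Figure D3:**
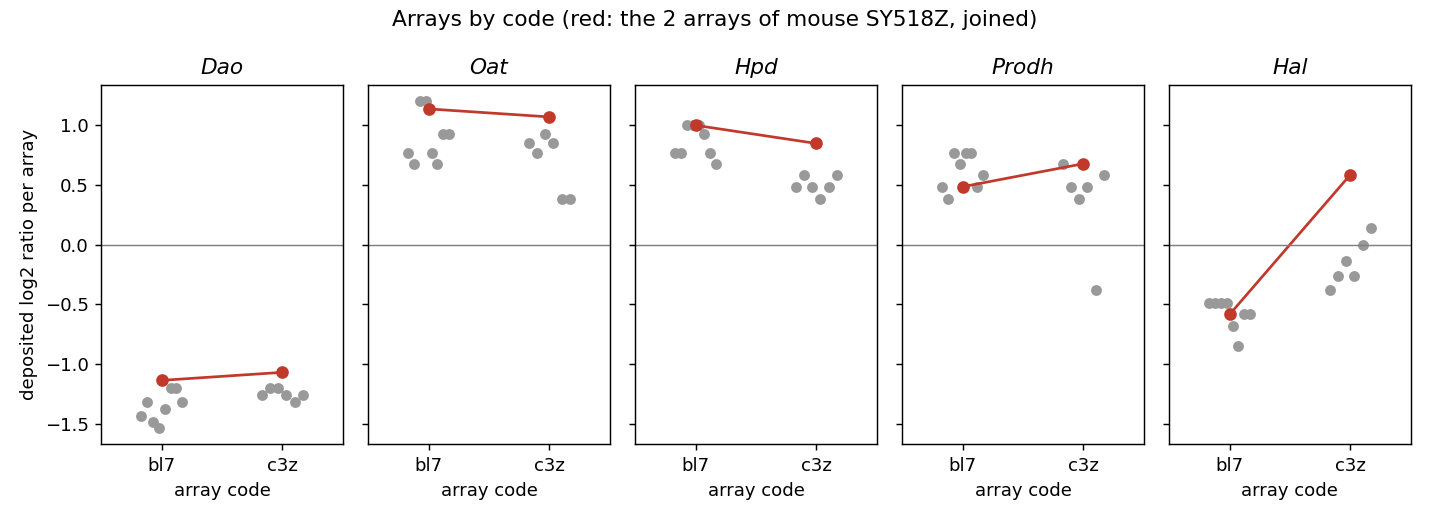
Deposited log2 ratio per array (vertical axis) by array code (horizontal axis: 9 arrays with bl7, 7 with c3z) for each member; the 2 arrays of mouse SY518Z are red and joined, all others grey. The joined points differ by 1.17 for Hal and by at most 0.19 for the other 4 members.

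For the other members the difference by code was smaller and not called. With array code as a term, the code difference was -0.01 for Dao, 0.19 for Oat, 0.27 for Hpd and -0.09 for Prodh, and none of these 4 passed (limma, adjusted p from 0.132 for Hpd to 0.973 for Dao). On bl7 arrays alone Dao averaged -1.32, and on c3z arrays alone -1.21, and both passed. Hpd averaged 0.89 on bl7 arrays and 0.59 on c3z arrays, again both called.

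The wider set of amino acid breakdown genes lay mostly on the Cyp7a1 side. Of 99 genes listed, 42 were measured and tested, of which 25 passed above 0, 5 below 0 and 12 did not pass. Without the members the counts were 22, 3 and 12 of 37, with a median of 0.21. Over all 8348 features 18% passed above 0 and 25.4% below, with a median of -0.02. The comparison is a description, as these genes share arrays and control RNA. Between the series 6 of the 42 passed (limma), against 5.7% of all features. Hal was lower in TP mice, and the other 5, Got1, Cps1, Acadsb, Gcat and Aass, were lower in SY mice. The first 4 were not called against 0. They averaged -0.13, -0.10, -0.13 and -0.20 in SY mice, and 0.74, 0.70, 0.41 and 0.08 in TP mice. Array codes nearly follow the series, and the cause was not tested.

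Most called markers of Kupffer cells, stellate cells, lymphocytes and bile ducts lay on the Gstm1 side, while 3, 4, 3 and 1 markers were not called. Over all features 18% passed above 0 and 25.4% below. Of 7 Kupffer cell and macrophage markers 4 passed (limma), all below 0, with a median of -0.16 and a range of -0.65 (Cd68) to -0.03. Those not called were Adgre1 (-0.03), Clec4f (-0.05) and Marco (-0.16). Adgre1 and Marco averaged -0.18 and -0.50 in SY mice, and 0.13 and 0.17 in TP mice. Of 8 stellate cell and fibroblast markers 4 passed, all below 0 (median -0.16, range -0.49 for Acta2 to -0.04), and of 7 lymphocyte markers 4 passed, all below 0 (median -0.10, range -0.40 for Cd52 to 0.03). Of 4 bile duct markers 2 passed below 0 and 1 above (median -0.17, range -0.42 for Epcam to 0.40 for Cldn4). Of 7 hepatocyte markers 2 passed above 0, 1 passed below and 4 were not called. Their median was 0.09, and they ranged from -0.52 (Apoa1) to 0.23 (Fgb). Of 5 markers of pancreatic acinar cells 2 passed, both above 0, with a median of 0.06. The part of cell type composition in the ratios of the members and of the amino acid genes was not tested.

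In tyrosine breakdown all 4 measured enzymes passed above 0, as did 18% of all features. Hpd was followed by Gstz1, the maleylacetoacetate isomerase (0.52 ± 0.17), and by Hgd, which opens the ring of homogentisate in the step after Hpd (0.42 ± 0.09; SD, n = 8 each, each above 0 in 8 of 8 mice). These are neighbouring steps of the same route. In histidine and folate-linked breakdown, Uroc1, which acts on the product of Hal, passed on the opposite side to Hal, at 0.19 ± 0.14, and so did the folate enzyme Mthfd1 at 0.20 ± 0.07. Oat and Prodh were the only measured genes of the 7 listed for proline and ornithine.

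Among 8 genes for glycine, serine, threonine and D-amino acids, 3 passed above and 3 below 0, where 18% and 25.4% of all features did. With Dao on the Gstm1 side was Dld, the dihydrolipoamide dehydrogenase shared by the glycine cleavage system and the oxo acid dehydrogenase complexes, at -0.62 ± 0.10 (SD, n = 8; limma, adjusted p = 6.07e-07). Shmt1, the cytosolic serine hydroxymethyltransferase, lay opposite at 0.51 ± 0.11. In branched chain breakdown 8 of 12 passed above 0, 0 passed below and 4 did not pass. The called genes were led by the phosphatase Ppm1k, which activates the branched chain dehydrogenase (0.46 ± 0.15), the hydratase Auh (0.44 ± 0.10) and the carboxylase subunit Mccc2 (0.31 ± 0.12). Tryptophan breakdown split: Tdo2, its entry enzyme, passed at -0.27 ± 0.22, and Aadat (0.31 ± 0.11) and Kynu (0.14 ± 0.12) passed above 0. Single called genes of other routes were the lysine enzyme Aass (0.28 ± 0.15) and the methionine enzyme Mat1a (0.33 ± 0.30). Of 6 measured genes for alanine, aspartate and glutamate 2 passed above 0, the aminotransferase Gpt (0.29 ± 0.14) and the urea cycle enzyme Otc (0.23 ± 0.08).

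**Figure D4:**
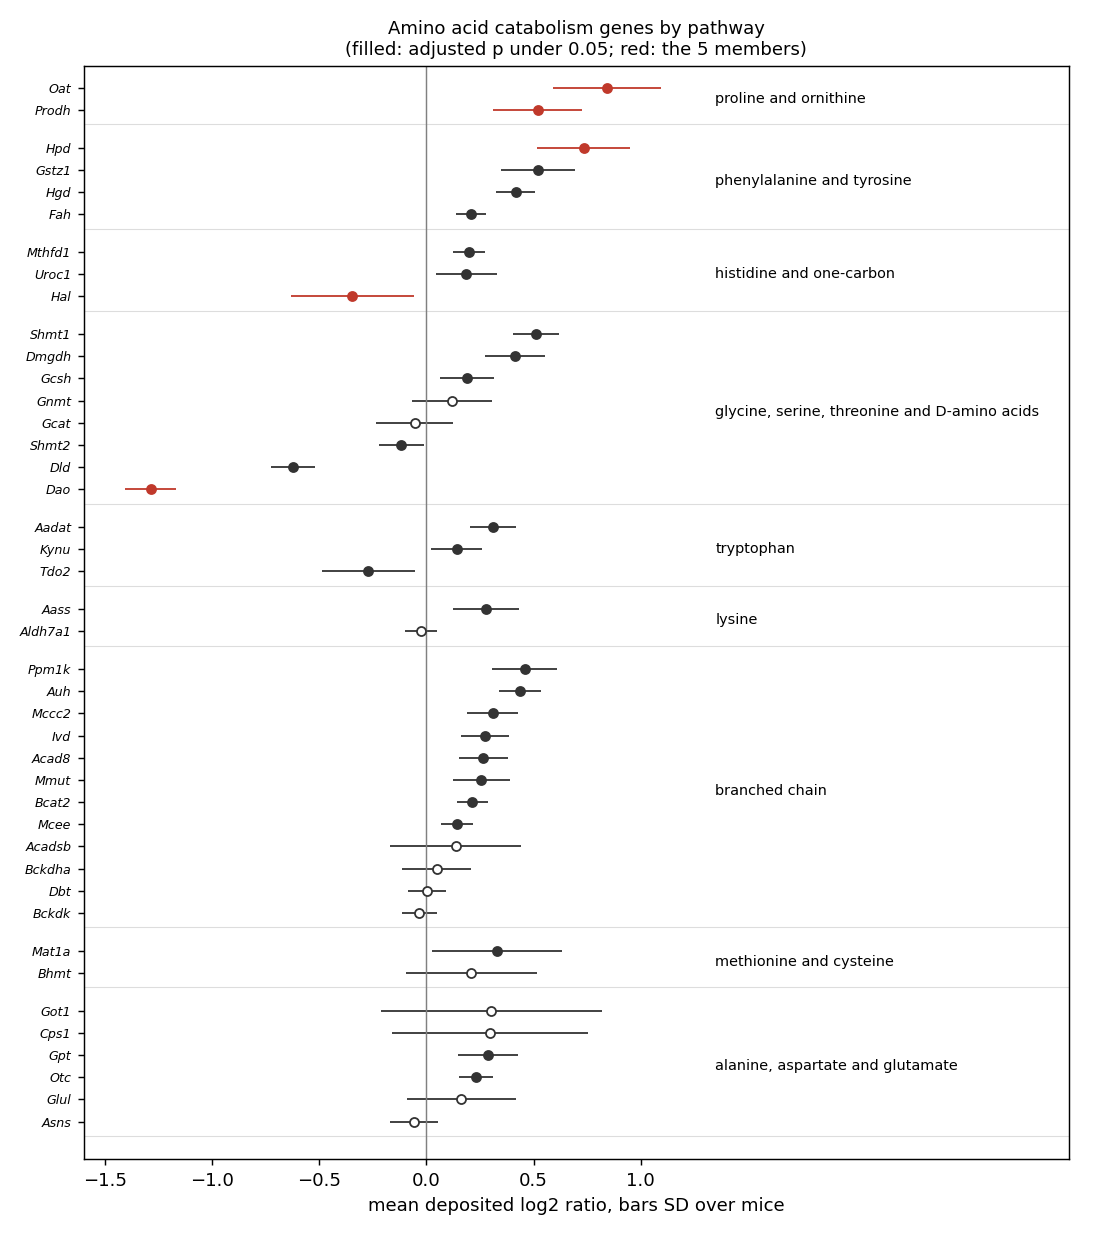
Mean deposited log2 ratio (horizontal axis) of the 42 tested amino acid breakdown genes, grouped by route, with bars for the SD over mice; filled points passed an adjusted p of 0.05 and red points are the 5 members. Most points lie above 0, while Dao at -1.29 and Dld at -0.62 lie farthest below it.

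Dao was set beside other enzymes of its compartment. Of 7 tested genes among 12 peroxisomal oxidases and catalase, xanthine dehydrogenase included, 3 passed above 0, 3 below and 1 did not pass, with a median of 0.08. Over all features 18% passed above 0 and 25.4% below. Pipox, which oxidises pipecolic acid and sarcosine, stood at 0.45 ± 0.09, and the glycolate oxidase Hao1 at 0.32 ± 0.06. Hao2, a related oxidase of hydroxy acids, stood at -0.17 ± 0.10 (SD, n = 8 each), the next lowest after Dao in the list. Because Dao is known mainly from kidney, genes of kidney tubules were examined. Of 7 tested out of 13 listed, 1 passed above 0 and 3 below, to be read against the same shares. Their log2 ratios ran from -0.22 (the anion transporter Slc22a6) to 0.19 (the water channel Aqp2), with a median of -0.06. Whether kidney genes had a part in the result for Dao was not tested.

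Whether members varied together between mice was examined over the 10 pairs. The pair of Hpd and Prodh gave Pearson's r = 0.69 (exact permutation p = 0.0485, adjusted p = 0.191) and Spearman's rho = 0.73 (exact permutation p = 0.0455, adjusted p = 0.455), and r = 0.67 without the 2 mice farthest from the median of Hpd. Oat and Prodh had r = 0.70 (exact permutation p = 0.0573, adjusted p = 0.191; rho = 0.44, exact permutation p = 0.271, adjusted p = 0.575). This relation rested on 2 mice, since r was -0.13 without them. The lowest mouse for both genes, SY524ROB+L, had Prodh arrays at -0.38 and 0.58. Prodh and Hal had r = -0.68 (exact permutation p = 0.054, adjusted p = 0.191). Without the 2 mice farthest from the median of Prodh, their r was -0.08. None of the 10 pairs passed after adjustment (lowest adjusted p = 0.191 for r). Each series holds only 4 mice, and correlations within a series were not computed.

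The genes whose values over the 8 mice were most like those of a member were taken from 6177 named genes measured in every mouse. For Dao they were Ptgds (r = 0.98) and Slc25a44 (r = 0.96), and for Oat 1700012B09Rik (r = 0.93) and Igtp (r = 0.93). For Hpd they were Proser2 (r = 0.95) and Ino80 (r = 0.94), and for Prodh Gtf2ird1 (r = 0.95) and Zbtb12 (r = 0.91). For Hal they were Abcb8 (r = 0.98) and Slc12a7 (r = 0.97). The mean log2 ratios of these 10 genes lay between -0.14 (Slc25a44) and 0.26 (Igtp), much nearer to 0 than those of Dao, Oat and Hpd. All values share the arrays and the control RNA, and with this many genes and 8 mice the best matches are high by selection.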

How the data were processed

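The authors deposited 1 table of log2 ratios of the 2 channels of each array. Per the labels, control-diet liver RNA was labelled with Cy3 and treated liver RNA with Cy5, and 0 arrays had the dyes swapped. How background was treated, how arrays were normalized, why some values are blank and which way the ratio runs are not stated in those sources. Ratios had been rounded to 1 decimal before the log was taken (144660 of 144660 values fell within 0.01 of a whole number once multiplied by 10), so the smallest step from 0 was 0.138. All 16 arrays had a median of 0, and 8094 to 9314 of 9596 probes had a value, so values were used as deposited.

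Names came from the platform's 2007 annotation, updated by Entrez identifier against RefSeq (GRCm38.p6, which also gave gene positions and promoter windows): 7407 had 1 symbol, 437 several and 1752 none. Probes of a gene and then the 2 arrays of a mouse were averaged. The 8348 features with values in at least 6 mice were tested against 0 by a two-sided moderated test (limma 3.58.1, eBayes; R 4.3.3), called at a Benjamini-Hochberg adjusted p under 0.05 and checked on simulated data. Two-sided exact permutation tests were used over mice. SY and TP mice were compared in the same kind of model. Alternatives covered centring, scaling, quantile normalization, single probes, filters on blanks, robust moderation, a single array per mouse, mouse as a random block, a minimum of 1.2-fold, control spread, each series, array codes and leaving out each mouse. The array code alternatives, other than mice with c3z arrays alone, were chosen after seeing the data. The members and gene lists were chosen with earlier results of these data known. Genes named were the members, up to 3 called genes farthest from 0 per list, Gstm1, Cyp7a1 and the 2 genes most like each member. Hao2, Slc22a6, Aqp2, Got1, Cps1, Acadsb, Gcat, Adgre1, Clec4f and Marco were named after their values were seen. Figures were drawn with matplotlib 3.10.9.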

Additional observations from a re-analysis of the deposited data

Results flagged for a closer look

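The difference of Hal between SY and TP mice, 0.47 on the log2 scale (SY minus TP), drew attention because the series differed beyond their spread (limma, adjusted p = 0.0178), with 4 of 4 TP mice below all 4 SY mice. In this comparison 5.7% of all features passed, and 9.39% of those with values in all mice did not overlap. With array code as a term and mouse as a random block, the difference was -0.34 (limma, adjusted p = 0.474). With SY518Z taken from its c3z array alone the difference was 0.61 (adjusted p = 0.0311), and with its bl7 array alone it was 0.32 (adjusted p = 0.189). No mouse stood apart from the others by Dixon's test for any of the 5 genes, over 8 mice or within a series.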

How the results depend on the processing

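Centring arrays on their medians and scaling them to a common median absolute value left every value of the members as it was, because the deposited arrays already shared these, so neither tested anything. Dao and Hpd kept their sign and call under all 24 other alternatives run for each, with log2 ratios of -1.36 to -1.21 for Dao and 0.50 to 0.89 for Hpd. Oat and Prodh kept both under 23 of 24. With the 3 mice on c3z arrays alone, Oat was 0.69 and Prodh 0.37, neither called. Fewer mice were tested there, and SY524ROB+L, the lowest mouse for both genes, was among them. Hal kept its sign and call under 18 of 24. It was not called on the second array of each mouse (-0.28, adjusted p = 0.107), against a minimum of 1.2-fold or with the control RNA taken as a mix of 7 varying mice (-0.35 in both, adjusted p = 1 and 0.0577), in SY mice alone (-0.11) and in the mice with c3z arrays alone (-0.15). It turned to 0.033 on c3z arrays alone, which added the c3z array of SY518Z. Leaving out each mouse changed no diet call of the 5 members. Filters on blanks, single probes, robust moderation, a random block, the 1.2-fold minimum and control spread left each member's mean ratio unchanged by construction. Only the call could change under these. A permutation test by sign flips, also among the 24, left the mean unchanged too and was judged by its unadjusted p.

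Among the amino acid genes the main counts were 25 above and 5 below 0. They were 8 and 2 against a minimum of 1.2-fold, which 1.47% of features passed. The count below 0 was 2 with varying control mice and 3 in TP mice alone (the mice with bl7 arrays alone). The count above 0 was 11 in the mice with c3z arrays alone. The shares of all features called in those fits are not given here, so these changes cannot be read as particular to the amino acid genes. The peroxisomal counts of 3 and 3 became 1 and 1 against 1.2-fold. Between the series, quantile normalization turned Dao from 0.14 to -0.065 and Oat from -0.10 to 0.089 (none called), and array code as a term turned Oat to 0.070 and Hal to -0.34. The difference of Hpd between the series, -0.26, was -0.02 with array code as a term (adjusted p = 0.965) and -0.10 after quantile normalization, not called in either. Leaving out each mouse gave -0.20 to 0.04 for Oat, turning without SY524ROB+L (0.040) or TP4168 (0.0042), -0.36 to -0.20 for Hpd, called without SY518Z, and 0.41 to 0.54 for Hal. Hal was not called without SY522ROB (adjusted p = 0.0634), SY524ROB+L (0.0703) or TP4205 (0.0682), nor with SY518Z by its bl7 array alone (0.32). The cause of these changes was not tested. Of the correlations, Dao with Oat (r = 0.38), Dao with Prodh (0.17), Oat with Prodh (-0.13) and Oat with Hal (0.74) turned without 2 mice. No paired analysis was possible because all samples form 1 group. The precision is limited by the number of mice and by the rounding of the ratios.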
